A study of Caenorhabditis elegans with 6 samples.

Results

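The genes described here are the Hedgehog-related genes of *Caenorhabditis elegans* and the genes that resemble the Hedgehog receptor Patched. They were chosen by name, as every gene whose symbol starts with *grd-*, *grl-*, *wrt-*, *ptr-* or *ptc-*, together with *hog-1* and *qua-1*, and with 10 or more counts summed over the 6 libraries of the study. Of the 46726 genes in the count tables, 85 matched by symbol and 67 of these reached 10 counts. The 67 members comprised 12 groundhog genes (*grd*), 18 ground-like genes (*grl*), 9 warthog genes (*wrt*), *hog-1*, the quahog gene *qua-1*, 24 patched-related genes (*ptr*), and the 2 patched genes *ptc-1* and *ptc-3*. The first 5 kinds are called Hedgehog-related here (41 genes), and the *ptr* and *ptc* genes are called patched type (26 genes). At the limit itself, *grd-9* and *grl-27* entered with 10 counts each, and *grl-2* and *grl-25* stayed out with 8 counts each.

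In most animals a secreted Hedgehog ligand binds Patched, a membrane protein with a sterol-sensing domain, and thereby releases Smoothened. Nematodes have no classical Hedgehog gene and no Smoothened gene. They have instead secreted proteins in which a Hog domain, the self-cleaving part of Hedgehog, is joined to other amino-terminal domains. Some warthog and groundhog genes and the quahog gene encode such proteins. Other warthog and groundhog genes, and the ground-like family, encode related secreted proteins without the Hog domain. Nematodes also have a large set of patched-related membrane proteins. Both classes are best known from the hypodermis, seam cells, glia and moulting of larvae, while *ptc-1* is required for cytokinesis in the germline.

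The libraries were made from poly(A) RNA of whole day 2 adults, 3 from the wild-type strain N2 and 3 from *mbl-1(tm1563)*, a strain with a deletion in the only muscleblind gene of the worm, a regulator of splicing. Animals of both strains were kept at 20 °C on HT115 bacteria with the empty RNAi vector, and from the L4 stage they were exposed to 10 µM 5-fluorouracil, which stops progeny from hatching. The mutant strain carries 1 allele in every tissue, so that the values describe an allele and the whole animal. In such samples fewer cells of a type and less RNA per cell cannot be told apart.

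The libraries held 17574738 to 20750318 counts on genes. Counts of *mbl-1* were 233, 245 and 228 in N2 and 70, 138 and 106 in the mutants, so the strains did not overlap and the mutants kept reads of the gene (log2 fold change -1.14, standard error 0.24, adjusted p = 0.0382). Adjusted p-values here are Benjamini-Hochberg values over all genes tested with the quasi-likelihood test of edgeR. The call of *mbl-1* was lost without N2 replicate 1, 2 or 3 or mutant replicate 3 (adjusted p = 0.105 to 0.16), and without mutant replicate 1 the log2 fold change was -0.89. Mutant replicate 1 stood apart from the others in long genes. Among the 1537 tested genes with at least 3000 exon bases, the median log2 ratio to the N2 mean was -0.469 in mutant replicate 1, -0.209 in mutant replicate 3 and 0.0268 in mutant replicate 2.

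The members were a small part of the adult transcriptome, with 156559 counts in all, or 0.141% of the counts on genes. Levels are given as CPM, counts scaled to the TMM-adjusted size of each library, and are compared between genes as CPM per kilobase of exon. In N2 the highest level per kilobase was that of *ptc-1*, at 174 ± 7.20 CPM per kilobase (SD, n = 3), followed by *ptr-2*, which is needed for the permeability barrier of the eggshell, at 114 ± 7.63. These patched-type genes held 80.8% of all member counts between them, 56.9% in *ptc-1* and 23.9% in *ptr-2*. The next levels belonged to Hedgehog-related genes, *grd-5* at 63.2 ± 2.07 and *grd-3* at 39.96 ± 2.32 CPM per kilobase. Each of these 4 genes was separated from its neighbours in the order, without overlap between N2 libraries.

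**Figure D1:**
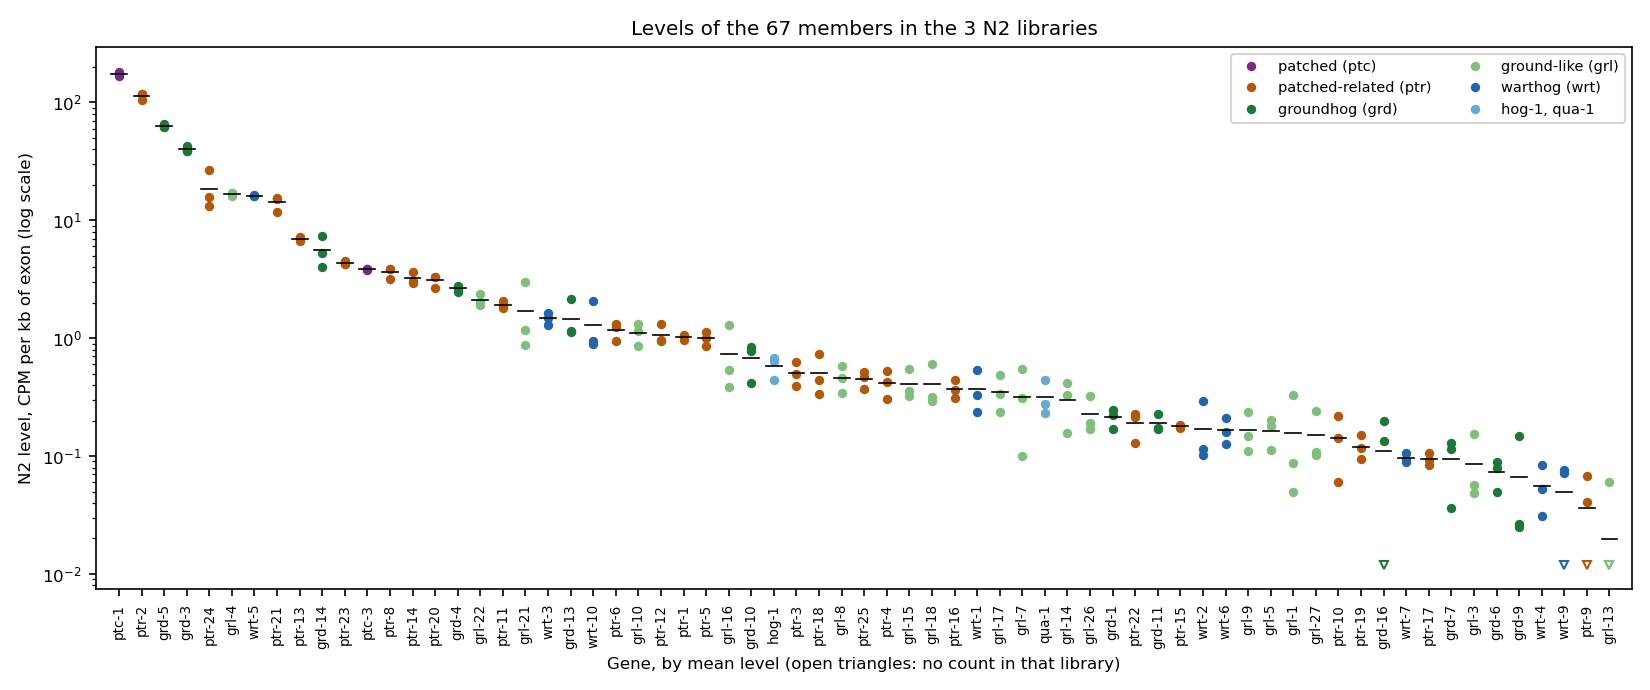
Level of each of the 67 members in the 3 N2 libraries, in CPM per kilobase of exon on a log axis, ordered by the mean (horizontal bars) and coloured by family. Points are libraries and open triangles mark libraries without a count, and the levels run from 174 for *ptc-1* down to 0.0199 for *grl-13*.

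Below them, *ptr-24*, *grl-4* and *wrt-5* had 18.6, 16.7 and 16.2 CPM per kilobase, and neighbours among these did not differ beyond the spread of the N2 libraries. The level of *ptr-21*, 14.2, lay apart from that of *wrt-5* above it, and *ptr-13* (6.96) and *grd-14* (5.57) completed the 10 highest, of which 5 were patched type. Family medians in N2 were 1.01 CPM per kilobase for the *ptr* genes, 0.447 for *grd*, 0.335 for *grl* and 0.170 for *wrt*, so that each family held a few genes far above the rest. In CPM without regard to length, 34 members had less than 1 CPM in N2, 21 had 1 to 10 and 12 had 10 or more. In the mutants *ptc-1*, *ptr-2* and *grd-5* were again highest by their means, while *grd-3* and *wrt-5* (16.6 ± 1.79 and 16.5 ± 3.43 CPM per kilobase, SD, n = 3) did not differ beyond their spread.

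Of the 67 members, 40 passed the filter on low counts and were tested, 19 Hedgehog-related and 21 patched type. In 32 of these all 6 libraries exceeded the level the filter asks for, 0.555 CPM, while *grd-1*, *grl-22* and *ptr-16* did so throughout N2 only, and *grd-10*, *grl-14* and *ptr-22* throughout the mutants only. At an adjusted p under 0.05 together with at least a 2-fold difference, 5 members were lower in *mbl-1(tm1563)* mutants, namely *grd-5*, *grd-3*, *grl-22*, *ptr-13* and *ptr-6*. Among all 12335 tested genes 1.14% were called lower. No member was called higher, against 0.681% of all tested genes. At an unadjusted p under 0.05 in the same edgeR test 18 members were lower and 0 higher. Of all tested genes 23.7% passed that limit, in either direction. By the adjusted p alone DESeq2 had 10 members lower and 0 higher, and edgeR's likelihood ratio test 13 and 0. Shares of all tested genes are not given for DESeq2 and the likelihood ratio test.

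Without the limit on the fold, 9 members had an adjusted p under 0.05, all lower in the mutants, and the 4 further genes were *ptr-11*, *ptr-23*, *grl-4* and *ptr-14*. The share of all tested genes lower at this limit was 3.58%, and 1.77% were higher. The libraries of the strains did not overlap in 21 tested members, with the mutants lower in 19 and higher in 2 (*grd-10* and *ptr-22*), and in all tested genes the mutants were lower without overlap in 17.9% and higher in 14.7%. These counts depended on single libraries. Leaving out N2 replicate 1, 2 or 3 or mutant replicate 3 left 3 called members, since *grl-22* and *ptr-6* missed the adjusted p in each of these fits. At any fold, 3 members passed the adjusted p without N2 replicate 1, 4 without N2 replicate 2, 3 without N2 replicate 3 and 3 without mutant replicate 3. Without mutant replicate 1, the library that stood apart, 5 members were called and 9 passed at any fold.

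**Figure D2:**
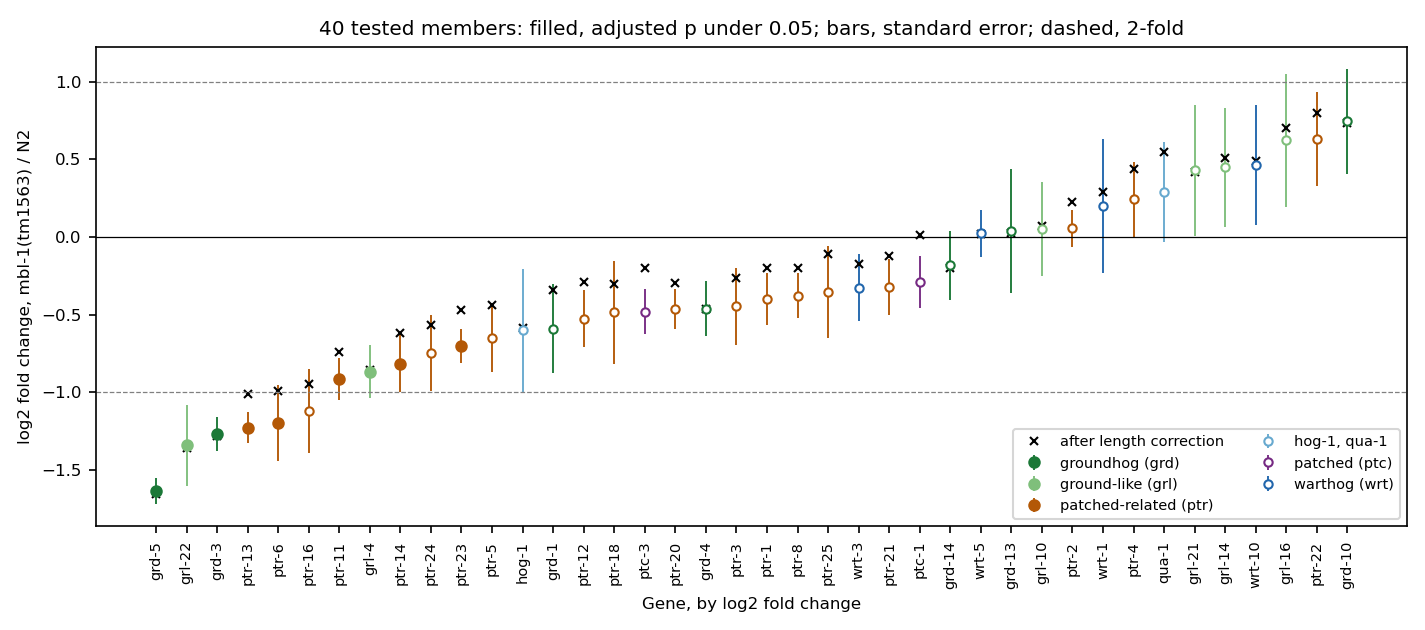
Log2 fold change (mutant over N2) of the 40 tested members with standard errors, ordered by size and coloured by family. Filled circles have an adjusted p under 0.05, crosses give the value after a correction for gene length, dashed lines mark 2-fold, and the 9 filled circles are all below 0, from -1.64 for *grd-5* to -0.70 for *ptr-23*.

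Of the 7 tested groundhog genes 2 fell, those with the highest levels of the family, and *grd-5* had the largest fold change of the tested members. *grd-5* (WBGene00001694, chromosome V from 8619032 to 8619870 in WBcel235, plus strand) had 34.4, 32.3 and 32.7 CPM in N2 replicates 1, 2 and 3 and 10.4, 11.02 and 10.5 CPM in mutant replicates 1, 2 and 3. The libraries within each strain lay close together, and the strains were far apart. The gene fell 3.11-fold (log2 fold change -1.64, standard error 0.085, adjusted p = 0.000271), and the fall was -1.65 on the log2 scale after a correction for gene length. *grd-3* (WBGene00001692, chromosome IV from 3439655 to 3440453, plus strand) had 26.7, 26.7 and 29.5 CPM in N2 and 12.9, 10.8 and 10.7 in the mutants. All mutant libraries were again well below N2, and the gene fell as well (log2 fold change -1.27, standard error 0.11, adjusted p = 0.00207). Whichever of the 6 libraries was omitted, both genes stayed past the limits.

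Most of the difference in the summed level of the Hedgehog-related class lay in *grd-5* and *grd-3*. The 41 genes summed to 112, 114.8 and 112 CPM in the N2 libraries and to 73.2, 67.6 and 65.0 in the mutants. Without this pair, the other 39 genes summed to 50.8, 55.7 and 49.6 CPM in N2 and to 49.9, 45.8 and 43.8 in the mutants, where the strains overlapped. Of the 19 tested Hedgehog-related genes, 9 had a negative and 10 a positive log2 fold change, and the median was 0.03, against -0.04 over all tested genes. Of the other tested groundhog genes, *grd-14* had 4.38, 3.18 and 2.43 CPM in N2 and 3.05, 2.84 and 2.95 in the mutants. The strains overlapped and the log2 fold change was -0.18 (95% confidence interval -0.70 to 0.34).

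*grd-3* lies in a row with *grd-13* before it and *grd-10* after it, on the same strand and with 147 and 601 bases between the genes. Neither neighbour passed the test. Its counts were 28.1, 22.4 and 16.1 times the summed counts of *grd-13* and *grd-10* in N2, and 8.30, 5.00 and 8.91 times in the mutants. The ratios of the strains did not overlap (exact permutation of the libraries, two-sided, p = 0.1, which is the lowest value possible with 3 against 3, and adjusted p = 0.167 over 5 such ratios). *grd-3* was already called lower in these libraries, so its ratio is no separate support for that call. The neighbours were thinly covered, with 13, 14 and 22 counts of *grd-13* and 5, 10 and 9 of *grd-10* in N2. *grd-10*, a gene of the seam cells, was among the few members with higher values in the mutants, 0.264, 0.498 and 0.532 CPM in N2 and 0.673, 0.852 and 0.655 in the mutants, and did not pass the test (log2 fold change 0.75, adjusted p = 0.23). The neighbouring pair *grd-14* and *grd-4* on chromosome X, 184 bases apart, kept overlapping count ratios in both strains (exact permutation p = 0.4, adjusted p = 0.4). The ratio of *wrt-10* to *wrt-1* overlapped as well (exact permutation p = 0.2, adjusted p = 0.25). Those of *grd-5* to *grd-3* and of *ptr-13* to *ptr-2*, pairs that lie on different chromosomes, were lower in the mutants without overlap (exact permutation p = 0.1, adjusted p = 0.167 each). Their numerators *grd-5* and *ptr-13* were already called lower in these libraries, so these ratios are no separate support either.

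Of the 6 tested ground-like genes, 2 fell and 4 did not pass the test, and *grl-22* reached the level of the filter throughout N2 only, a way into the test that favours a lower value in the mutants. *grl-22* (WBGene00001731, chromosome III from 5413137 to 5414011, minus strand) had 1.21, 1.39 and 1.12 CPM in N2 and 0.466, 0.398 and 0.600 CPM in the mutants. These were 23, 28 and 19 counts in N2 and 9, 7 and 11 in the mutants, so the groups were apart but thinly covered (log2 fold change -1.34, standard error 0.26, adjusted p = 0.0305). Its exons share 78 bases with those of *W03A5.1* on the other strand, and the counting did not use the strand. *grl-4* had 13.2, 13.98 and 14.02 CPM in N2 and 5.59, 8.98 and 8.08 in the mutants. Mutant replicate 1 was the lowest, and the other mutant libraries were also below N2, so that the gene fell by less than 2-fold (log2 fold change -0.87, standard error 0.17, adjusted p = 0.0313). *grl-21*, a ligand of fat and mitochondrial regulation that acts with *ptr-24*, had 0.792, 2.04 and 0.592 CPM in N2 and 1.60, 1.42 and 1.69 in the mutants. N2 replicate 2 exceeded all mutants and the other N2 libraries lay below them, and the log2 fold change was 0.43 (95% confidence interval -0.55 to 1.41).

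No warthog gene passed the test, and 1 of the 4 tested had a negative log2 fold change. At an unadjusted p under 0.05 edgeR's test had 0 of the 4, against 23.7% of all tested genes in either direction. DESeq2 and the likelihood ratio test had 0 at the adjusted p. *wrt-5*, which acts in the embryo, had 12.98, 13.04 and 13.2 CPM in N2 and 16.4, 11.1 and 12.3 in the mutants. The N2 libraries were nearly equal and lay within the mutant range, and the log2 fold change was 0.03 (95% confidence interval -0.33 to 0.38). *wrt-3* had 3.59, 3.13 and 4.02 CPM in N2 and 3.73, 2.39 and 2.40 in the mutants, overlapping in mutant replicate 1, and 1002 of its exon bases are shared with another annotated gene on the same strand. *wrt-10*, a gene of the seam cells, had 1.003, 2.34 and 1.06 CPM in N2 and 2.85, 1.70 and 1.58 in the mutants, and overlapped as well. The single members *hog-1* (log2 fold change -0.60, adjusted p = 0.381) and *qua-1*, a gene required for moulting (0.29, adjusted p = 0.598), overlapped between strains.

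**Figure D3:**
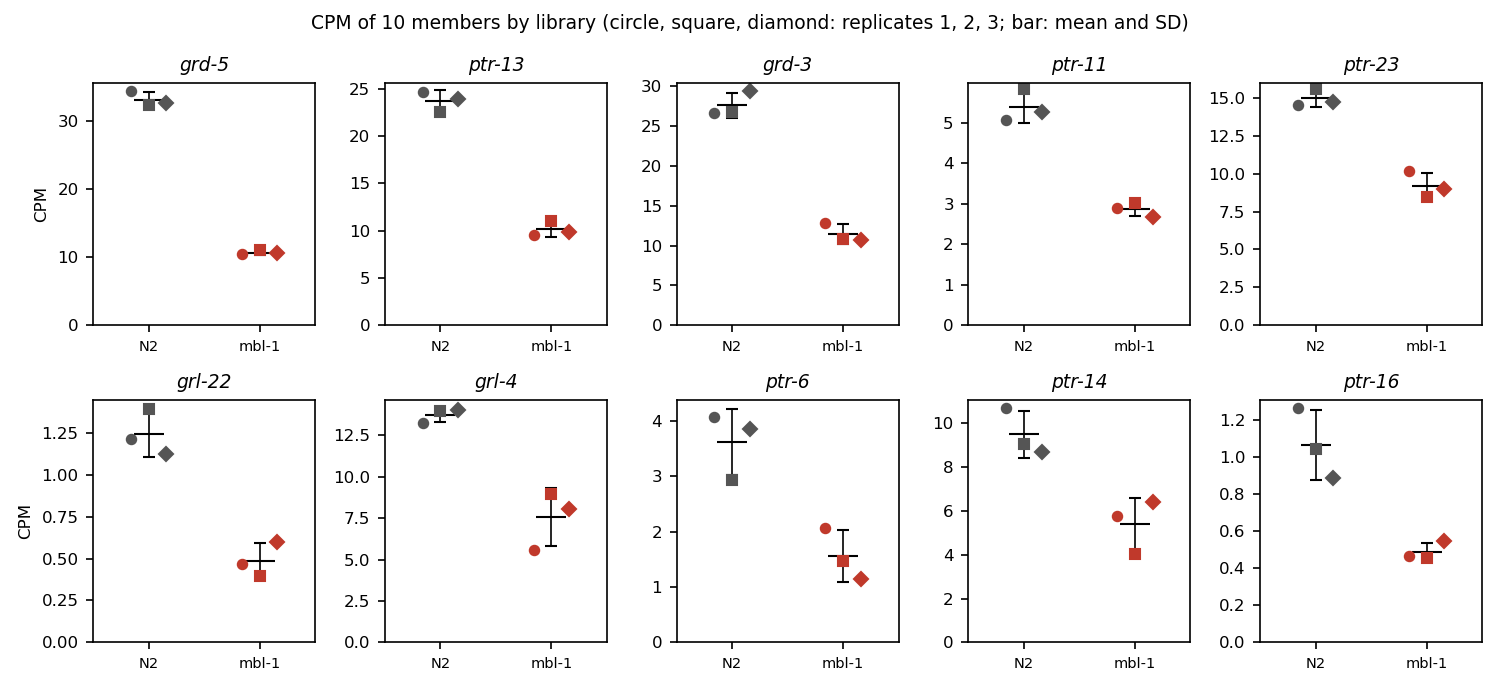
CPM by library of the 9 members with an adjusted p under 0.05 and of *ptr-16*, which missed it (circle, square and diamond: replicates 1, 2 and 3 of N2 in grey and of *mbl-1(tm1563)* in red, bars: mean and SD, n = 3). Each panel has its own axis from 0, and in all 10 genes the mutant libraries lie below the N2 libraries. Of these genes *grl-22* and *ptr-16* reached the level of the filter throughout N2 only.

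Among the patched-type genes 5 of the 21 tested fell and 16 did not pass the test. *ptr-13* (WBGene00004227, chromosome II from 11156589 to 11162481, minus strand) had 24.7, 22.5 and 24.0 CPM in N2 and 9.58, 11.02 and 9.82 in the mutants. The mutant libraries held 42.7% of the N2 level, with little spread in either strain (log2 fold change -1.23, standard error 0.10, adjusted p = 0.00189). The gene was called whichever library was omitted, and after the length correction the log2 fold change was -1.01. *ptr-6* (WBGene00004221, chromosome II from 5242442 to 5246837, minus strand) had 4.06, 2.94 and 3.85 CPM in N2 and 2.07, 1.48 and 1.15 in the mutants. Its lowest N2 library stood above its highest mutant library (log2 fold change -1.20, standard error 0.25, adjusted p = 0.0361), and the length correction gave -0.99, just short of 2-fold.

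The 3 other patched-related genes that fell did so by less than 2-fold. *ptr-11* had 5.07, 5.82 and 5.27 CPM in N2 and 2.90, 3.01 and 2.67 in the mutants, with tight groups far from each other (log2 fold change -0.91, adjusted p = 0.0114). *ptr-23* had 14.6, 15.6 and 14.7 CPM in N2 and 10.1, 8.46 and 9.01 in the mutants (log2 fold change -0.70, adjusted p = 0.0132). *ptr-14* had 10.7, 9.06 and 8.70 CPM in N2 and 5.75, 4.03 and 6.39 in the mutants (log2 fold change -0.81, adjusted p = 0.0472). The groups did not overlap in any of them, but after the length correction *ptr-23* and *ptr-14* missed the limit, with adjusted p = 0.0841 and adjusted p = 0.0834, over ranges of 9.97e-06 to 0.0907 and 0.000961 to 0.0842 in the alternatives that kept all libraries. *ptr-16*, at 1.27, 1.04 and 0.887 CPM in N2 and 0.466, 0.454 and 0.546 in the mutants, differed by more than 2-fold and missed the adjusted p (log2 fold change -1.12, adjusted p = 0.0567). Like *grl-22* it reached the level of the filter throughout N2 only, a way into the test that favours a lower value in the mutants.

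The most abundant patched-type genes did not pass the test. *ptc-1* had 857, 871 and 926 CPM in N2 and 539, 906 and 728 in the mutants. Mutant replicate 1 was far below N2, mutant replicate 2 was among the N2 values, and the log2 fold change of -0.29 (95% confidence interval -0.68 to 0.10) became 0.012 after the length correction. *ptr-2* had 305, 345 and 342 CPM in N2 and 291, 398 and 343 in the mutants, and the groups overlapped throughout. Its log2 fold change was 0.06, and the 95% confidence interval of -0.22 to 0.33 left out a 2-fold change in either direction. After the length correction the value was 0.23, short of the limit (adjusted p = 0.0695). *ptc-3*, a patched protein needed for osmoregulation, had 16.9, 17.2 and 17.3 CPM in N2 and 10.8, 15.1 and 11.03 in the mutants. The N2 libraries were nearly equal and all mutants were lower, without passing the test (log2 fold change -0.48, adjusted p = 0.0967, and -0.20 after the length correction).

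*ptr-24* and *ptr-21* came next to *ptr-2* in level among the *ptr* genes. *ptr-24* had 79.6, 39.1 and 46.4 CPM in N2 and 30.4, 35.6 and 32.6 in the mutants. N2 replicate 1 was far above all other libraries, and the log2 fold change of -0.74 (adjusted p = 0.126) was -0.38 without it. *ptr-21* had 39.96, 52.7 and 51.9 CPM in N2 and 30.1, 47.9 and 37.9 in the mutants, and overlapped only through mutant replicate 2 (log2 fold change -0.32, 95% confidence interval -0.74 to 0.10). The value was -0.12 after the length correction and -0.17 without mutant replicate 1.

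As a class, patched-type genes leaned to lower values in the mutants. Of the 21 tested, 18 had a negative log2 fold change, with a median of -0.48, while 55.2% of all tested genes were negative. In 13 of the 21 all mutant libraries were below N2, against 17.9% of all tested genes. The 24 members other than *ptc-1* and *ptr-2* summed to 231, 206 and 211 CPM in the N2 libraries and to 131, 157 and 140 in the mutants, without overlap. These are long genes, with 2594 to 5077 exon bases (median 2996.5), against a median of 1128 for the Hedgehog-related members. After the correction for gene length the median of the class was -0.29 and 17 of the 21 were negative. Over all genes in that fit the median was 0.05 and 5252 of 12229 were negative. The median log2 ratio of the class to the N2 mean was -0.639, -0.371 and -0.513 in mutant replicates 1, 2 and 3, and 19, 17 and 17 of the 21 genes lay below that mean. For the Hedgehog-related genes tested it was -0.0154, -0.198 and -0.155 in mutant replicates 1, 2 and 3. No test across the members was run.

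Some low-level members were highest in the same N2 library. In N2 replicate 2 the counts of *grl-21*, *grl-16* and *grl-7* were 41, 44 and 13, against 15, 17 and 7 in N2 replicate 1 and 10, 11 and 2 in N2 replicate 3. *wrt-10* had 47 counts there, against 19 and 18, and *wrt-1*, whose end faces that of *wrt-10* over 15 bases on chromosome II, had 19 against 11 and 7. *ptr-18* had 44 against 25 and 17. These genes were chosen after their values were seen. N2 replicate 2 was the highest N2 library in 45.0% of the 40 tested members, against 34.7% of all tested genes, and in 38.8% of all 67 members. Other low-level members were not highest there, with 9 counts of *grl-18* against 16 and 7, and 14 of *grd-13* against 13 and 22. The same library was highest of N2 in 6 of the 8 late embryo matrix markers and in 7 of the 15 tested regulators of moulting and cuticle. Both lists hold *noah-1*, *noah-2* and *fbn-1*, each highest there, so these genes enter both counts. N2 replicate 2 had 3.04 CPM of *lpr-3* (1.48 and 1.36 in the others), 5.57 of *sym-1* (3.69 and 3.25) and 10.1 of *noah-2* (7.86 and 6.63). It had the lowest N2 level of *let-653* (3.48, against 3.75 and 3.55). The part of embryos or of moult-like expression in these levels was not tested. The mutants did not show one high library for these genes, as *grl-7*, *wrt-1* and *wrt-10* were highest in mutant replicate 1 and *grl-16* in mutant replicate 2.

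**Figure D4:**
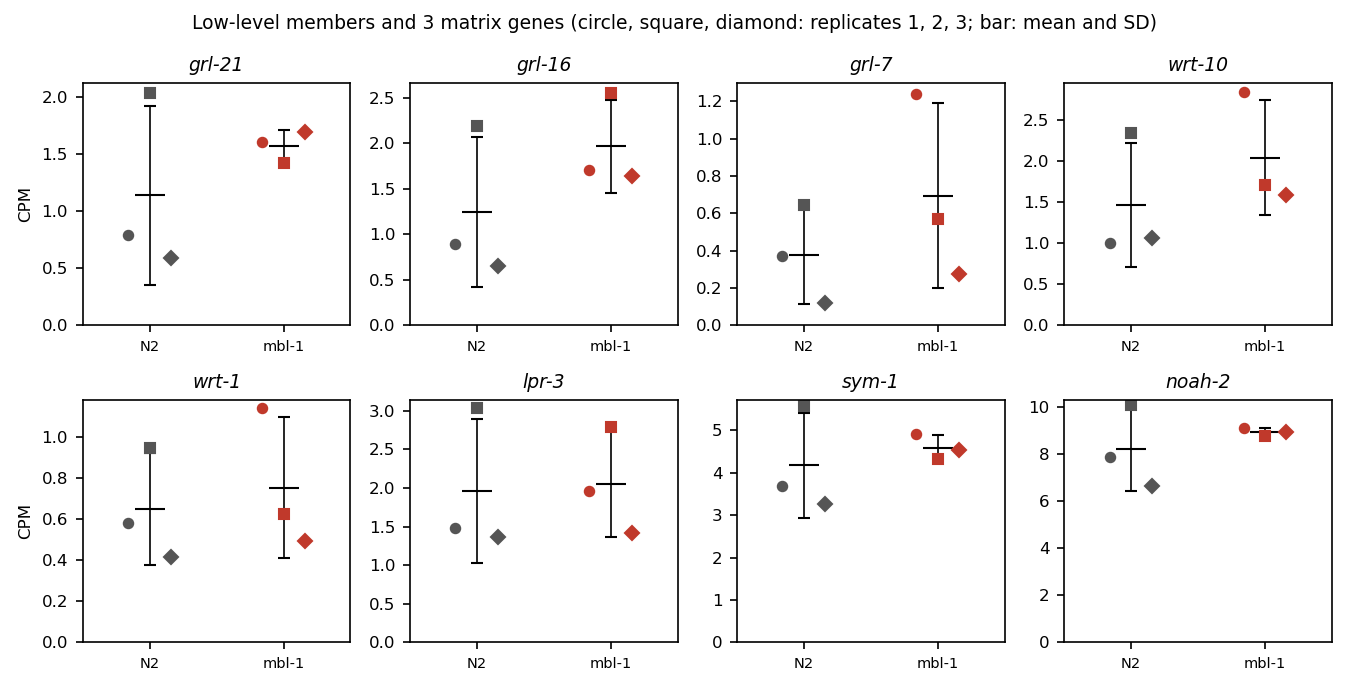
CPM by library of 5 low-level members and of the apical matrix genes *lpr-3*, *sym-1* and *noah-2* (circle, square and diamond: replicates 1, 2 and 3 of N2 in grey and of *mbl-1(tm1563)* in red, bars: mean and SD, n = 3). Each axis starts at 0. The 8 genes were chosen after their values were seen, and N2 replicate 2 is the highest N2 library in all of them, with 2.04 CPM of *grl-21* against 0.792 and 0.592.

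No gene on a list of other genes of the pathway and of sterol handling passed the test. Of 17 listed, 14 were tested and none had an adjusted p under 0.05 with edgeR, DESeq2 or edgeR's likelihood ratio test. At an unadjusted p under 0.05 in edgeR's test 2 were lower and 1 higher, while 23.7% of all tested genes passed that limit in either direction. Their median log2 fold change was -0.10. *tra-1*, the homolog of the GLI factors and a regulator of sex determination, had 27.02, 26.4 and 27.98 CPM in N2 and 11.8, 27.9 and 18.01 in the mutants, with mutant replicate 2 at the N2 level (log2 fold change -0.50, adjusted p = 0.298). *che-14*, a Dispatched-like gene of apical secretion, had 1.48, 1.34 and 1.48 CPM in N2 and 0.776, 0.909 and 1.04 in the mutants. Its mutant libraries were all lower, and it did not pass the test (log2 fold change -0.66, adjusted p = 0.122). The Niemann-Pick C1 homologs *ncr-1* and *ncr-2* overlapped between strains, with log2 fold changes of 0.30 and -0.03.

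Markers of the tissues in which these families are known were set beside the members. Of 15 tested regulators of moulting and cuticle none passed the adjusted p in edgeR's quasi-likelihood test (5 at an unadjusted p under 0.05, 2 with DESeq2 and 3 with the likelihood ratio test), and their median was -0.33, or -0.03 after the length correction. The share of all tested genes at an unadjusted p under 0.05, in either direction, was 23.7%, for comparison with this list and those below. Of 10 tested hypodermis markers only the GATA factor *elt-3* fell (log2 fold change -0.67, adjusted p = 0.0283), and the summed level of the list was 765 to 818 CPM in N2 and 596 to 728 in the mutants. Most of that sum lay in *vab-10* and *col-19*, each of which overlapped between strains. Of the 10 markers 7 had a negative log2 fold change, and the median was -0.14, or -0.02 after the length correction. None of 3 seam cell markers and none of 5 glia markers passed (0 and 1 at an unadjusted p under 0.05, 0 and 0 with DESeq2, and 0 and 1 with the likelihood ratio test). Their summed levels were 52.8 to 57.4 and 88.0 to 93.9 CPM in N2 and 33.1 to 59.6 and 54.2 to 102 in the mutants.

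Of the early embryo markers all 8 tested had a negative log2 fold change, with a median of -0.74, and *tbx-11* was called (log2 fold change -1.09, adjusted p = 0.0187). The list summed to 14.8 to 19.01 CPM in N2 and to 10.8 to 11.5 in the mutants, without overlap. The sums of the hypodermis and intestine lists were lower without overlap as well. So were those of the body wall muscle markers (1131 to 1229 CPM in N2, 774 to 1042 in the mutants) and of the neuron markers (278 to 284 and 259 to 272). Of the 8 neuron markers 6 had a negative log2 fold change. The marker with the highest level, *snb-1*, went the other way without passing the test, at 155 to 160 CPM in N2 and 167 to 170 in the mutants. Germline markers, the tissue of *ptc-1*, summed to 8703 to 9436 CPM in N2 and 6830 to 10457 in the mutants and overlapped. The 8 late embryo matrix markers did so as well, both in *egg-6*, which made up most of their sum, and in the other 7, at 36.1 to 50.4 CPM in N2 and 31.4 to 42.04 in the mutants. Intestine markers, which include the vitellogenins, summed to 52247 to 58068 CPM in N2 and 22279 to 41224 in the mutants, and the 6 without *vit-2* and *vit-6* overlapped, at 793 to 905 and 757 to 853 CPM. Of the muscle and neuron markers, *unc-54* (log2 fold change -0.58, adjusted p = 0.0438), *myo-3* (-0.65, adjusted p = 0.0145) and *egl-3* (-0.77, adjusted p = 0.0389) fell. After the length correction *unc-54* was at -0.20 (adjusted p = 0.121) and *myo-3* at -0.26 (adjusted p = 0.262), both short of the limit. Sperm markers were close to 0, with a summed level of at most 2.85 CPM in any library, and their sum was higher in the mutants without overlap. The part of these lists in the levels of the members was not tested.

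The members were spread over all 6 chromosomes, with 21 on V, 12 on X, 11 on II, 10 on IV, 8 on I and 5 on III. Of the 30 groundhog and ground-like members 16 were on chromosome V, among them *grd-5*, whereas the other 4 called members were on II, III and IV. Exons of 20 members share bases with another annotated gene. Of the 9 members that fell, *grl-22* was the only such gene.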

How the data were processed

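Poly(A) RNA of whole day 2 adults was sequenced by the authors in 3 N2 and 3 *mbl-1(tm1563)* libraries. Per the labels, the submitters' processing notes and the methods of the study, reads were aligned with STAR to WBcel235 and counted on genes with HTSeq. The authors deposited raw counts per gene, unnormalized, and the file names say that strand was not used. Reads aligned to several places (9.74 to 9.87% in N2, 7.34 to 8.08% in the mutants) and reads on several genes were left out of gene counts by the authors, so near-identical or overlapping genes can be undercounted. No tool version is given in the sources used here.

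Symbols, positions and exon lengths were read from WBcel235 annotation release 115, where 99.2% of the 46726 identifiers were found. Reference sequences were not used. The members and all gene lists were chosen with earlier results of these data known.

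The tests used edgeR 4.0.16 in R 4.3.3 (filterByExpr with minimum count 10 and minimum total 15, TMM, robust quasi-likelihood test, strain as the only factor, Benjamini-Hochberg adjustment over 12335 genes). Calls used the study's limits, an adjusted p under 0.05 and at least 2-fold. The 5 ratios of neighbouring or paired genes were compared with two-sided exact permutation tests over libraries. The length correction removed each library's lowess trend (span 0.5, prior count 2) of log2 CPM on exon length. The text names *mbl-1*, members past the adjusted p, members with at least a 2-fold change that missed it, the 3 highest members per kilobase of *grd*, *grl*, *wrt* and *ptr*, the *ptc* genes, *hog-1*, *qua-1*, those at the count limit, 4 pathway genes, and list genes past the adjusted p. Others were chosen after their values were seen. Confidence intervals are 95% and come from the quasi-likelihood fit.

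No libraries were as alike as sampling noise allows (lowest chi-square per degree of freedom 3.59), so all 6 were kept as separate replicates. Labels call the replicates biological without naming separate cultures, so p-values measure the spread between these libraries. Alternatives were scaling by RLE, upper quartile or library size, other filters, DESeq2 1.42.0, edgeR's likelihood ratio test, no robust estimation, a replicate block, the length correction, a test against 2-fold, a limit of 0.01, no fold limit, and each library left out. The fits were tested on simulated counts with 200 changed genes.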

Additional observations from a re-analysis of the deposited data

How the results depend on the processing

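The 5 members called lower became 3 with the replicate number as a block, 3 at an adjusted p under 0.01, 1 in a test against a 2-fold change and 9 without the fold limit, and 3 to 5 with each library left out. The cause was not tested. The 9 lower at any fold became 3 under 0.01, and 3 to 12 with each library left out. Without the fold limit the length correction left 7 and the block 6. No member was called higher in any fit. The log2 fold change of *mbl-1* kept its sign and missed a call with the block (-1.18, adjusted p = 0.0551), the length correction (-0.96), both together (-0.98) and the 2-fold test (-1.14), with a range of -1.39 to -0.89 over the omitted libraries. The adjusted p of *mbl-1* over the other alternatives that test for any change lay between 0.000234 and 0.16. The block ended the calls of *grl-22* and *ptr-6* and the adjusted p of *ptr-14*, and scaling by library size alone ended the call of *ptr-6* (adjusted p = 0.0549). Deviations of libraries with the same number correlated at 0.158, 0.0134 and 0.145, and not every library correlated best with its own number, so the numbers were not taken to pair the libraries.

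For the call by adjusted p and fold together, 394 of 416 values of the 22 named members under alternatives kept their direction and side, 16 lost the call and 1 gained it (*ptr-16* with the likelihood ratio test). By the adjusted p alone, whatever the fold, the limit was lost 35 times and gained 6 times in the fits that test for any change. Of the losses 11 were of *ptr-14*, which missed the limit under all 3 other scalings, and *grd-5*, *grd-3* and *ptr-13* had none. The sign reversed 5 times, each time in a gene that did not pass the test. These were *grd-14* without N2 replicate 1 (0.064, range with each library left out -0.36 to 0.064), *wrt-5* without mutant replicate 1 (-0.15, range -0.15 to 0.19), *ptr-2* without mutant replicate 2 (-0.016, range -0.016 to 0.16), and *ptc-1* with the length correction (0.012), also with the block (0.011).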

Other observations

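The 27 members left out of the test had 10 to 68 counts each over the 6 libraries, and 20 of them overlapped between the strains. In 4 the mutant counts, scaled to CPM, were all below N2 (*grd-11*, *ptr-17*, *wrt-6* and *wrt-7*), and in 3 they were all above (*grd-16*, *grl-13* and *ptr-15*). Among all tested genes 17.9% were below and 14.7% above without overlap, and the shares among untested genes were not computed. *grl-13*, a ground-like gene, had 1, 0 and 0 counts in N2 and 4, 5 and 3 in the mutants. *ptr-15*, a patched-related gene, had 9, 9 and 8 counts in N2 and 13, 20 and 9 in the mutants. *grl-2*, under the limit of 10 counts, had 3, 3 and 2 counts in N2 and none in any mutant library, where the limit that a count of 0 allows is 3 counts per library. These genes were singled out after their values were seen, and at such counts no difference was tested.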
